A study of Mus musculus with 15 samples.

Results

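The genes described here belong to the machinery of regulated cell death: the caspases, the BCL2 family, the proteins that mitochondria release, the inhibitors of apoptosis, and the death receptors with their adaptors. Their transcripts were measured in whole mouse hearts 48 h after polymicrobial sepsis or sham surgery. The members were given by name, 35 in all, and a member was used where at least 1 probe set of the array named it and no other gene. This held for 33 members, on 72 probe sets, among 12393 genes so measured in the series. Bax and Ripk1 were not analysed here. The rule that picks probe sets uses no measured value.

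The model of sepsis was caecal ligation and perforation (CLP), which lets gut bacteria into the abdominal cavity. Total heart RNA was hybridised to 15 short oligonucleotide arrays, in 5 groups of 3. The wild-type mice were C57/BL6, and their hearts were labelled SHAM, CLP Min Dep or CLP Max Dep. What quantity the words Min Dep and Max Dep rank is not spelled out in the labels. The other mice were congenic B6.129P2-Nos2tm1Lau/J, labelled iNOS KO, which carry a germline deletion in the gene of the inducible nitric oxide synthase, and their hearts were labelled SHAM or CLP, so that the knockout controls carry the deletion too. All mice had isoflurane for surgery, a midline opening of the abdomen, buprenorphine and repeated subcutaneous saline, and were anaesthetised with ketamine and xylazine before a carotid catheter was placed and the heart was taken and frozen. The labels used here give no age. They do not say that the 3 arrays of a group come from 3 animals, so the p-values measure the spread between these arrays.

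Apoptosis runs along a pair of routes. In the mitochondrial route, BH3-only proteins bind the pro-survival BCL2 proteins or activate BAX and BAK1, the outer membrane opens, and cytochrome c leaves to assemble with APAF1 and caspase-9, while DIABLO relieves the block that XIAP places on caspases. In the receptor route, FAS or the TNF receptors recruit FADD or TRADD and caspase-8, with CFLAR as the brake and BIRC2 and BIRC3 steering the TNF receptor towards survival signalling. Inflammatory caspases act elsewhere: caspase-1 matures interleukin-1 beta, and mouse caspase-4, also called caspase-11, senses lipopolysaccharide in the cytosol. Adult heart muscle is rich in mitochondria, and several of the released proteins, cytochrome c and AIFM1 among them, work in respiration in a living cell.

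The deposited values carry no expression level. In the wild-type table every probe set was standardised over the 9 arrays, so that values and differences are in units of a probe set's own SD and cannot be turned into folds. In the knockout table the values behave as log differences, of a base that is not given, centred per probe set. The tables were never compared in level, genes were never compared in level with each other, and the labelled tissue could not be checked against marker levels. Precision is limited by the number of arrays. The knockout CLP replicate 1 lay between the other 2 CLP columns in 76.0% of probe sets, against 11.5% to 34.4% for the other columns within their groups. It was left out of the knockout test, and its values are given beside the others. Sex-linked genes set 2 arrays apart. Wild-type sham replicate 1 had Xist at 2.64 and Eif2s3y at -2.48, against Xist at -0.17 or below and Eif2s3y at -0.68 or above in the other wild-type arrays. Knockout sham replicate 2 had Xist at -6.36 and Eif2s3y at 5.76, against Eif2s3y between -0.27 and 0.100 in the other knockout arrays. Xist was also low, at -3.23, in knockout CLP replicate 1. Without either of these arrays, 0 members passed any comparison. Xiap and Aifm1 are the X-linked members. A gene passed a comparison at an adjusted p under 0.05 (limma, Benjamini-Hochberg over all 12393 genes).

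The first question was which members of the death machinery differed in wild-type hearts after sepsis. No member passed: 0 of 33 in either direction, against 0.718% of all genes (89), 0.339% higher and 0.379% lower (limma, unmoderated statistics). With eBayes moderation 0 members and 0 genes passed. At an unadjusted p under 0.05 there were 11 members (33.3%), against 18.6% of all genes. Of the 11, 8 were higher (9.23% of all genes) and 3 lower (9.38%). The values of all 6 CLP arrays lay beyond all 3 sham arrays in 7 members (21.2%), against 12.0% of all genes. Casp4, Diablo, Birc2 and Tnfrsf1a were those higher after CLP (5.89% of all genes), and Aifm1, Cycs and Xiap those lower (6.11%). Of these 7, Casp4, Birc2, Tnfrsf1a and Aifm1 rest on 1 probe set each. On balance 20 members were higher and 13 lower, with a median difference of 0.19 standardised units against 0.021 over all genes. Each role held genes on both sides of 0 except the receptor adaptors with CFLAR (3 of 3 higher) and the single effector BAK1, and with the 5′ to 3′ control difference as a covariate 1 of the 3 adaptor genes was higher. In Max Dep hearts alone, 2 of the 3 adaptor genes were higher than in sham and 1 was lower.

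**Figure D1:**
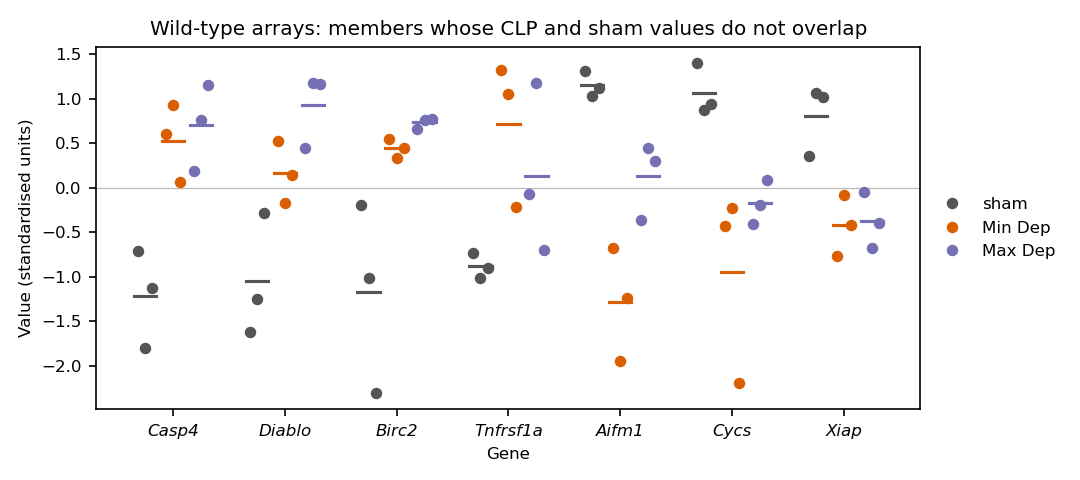
Value of each wild-type array (vertical axis, standardised units) for the 7 members in which no CLP array overlaps a sham array, with 3 points and a mean line for sham, Min Dep and Max Dep. Casp4, Diablo, Birc2 and Tnfrsf1a lie above sham in all 6 septic hearts, and Aifm1, Cycs and Xiap lie below it.

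Casp4, the inflammatory caspase that senses lipopolysaccharide, was the one caspase whose septic and sham values did not overlap. Its values were -0.71, -1.80 and -1.13 in sham hearts, 0.60, 0.93 and 0.061 in Min Dep hearts and 0.19, 0.76 and 1.15 in Max Dep hearts. Every septic heart was above every sham heart, and both septic groups covered about the same span. Septic and sham means were 1.83 ± 0.35 standardised units apart (SE, with an adjusted p of 0.0725 in limma). The other inflammatory caspases did not share it. Casp1, which activates interleukin-1 beta, differed by -0.33 ± 0.81 and Casp12 by -0.29 ± 0.45, each with the groups overlapping. Their sign turned with the 5′ to 3′ control difference as a covariate, under which all 3 inflammatory caspases were higher (lowest 0.050, median 0.45). On the chromosome Casp1, Casp4 and Casp12 stand next to each other, with 0 protein-coding genes between neighbours. Casp1 and Casp12 were both highest in sham replicate 3 and Max Dep replicate 1, at 2.23 and 1.56 for Casp1 and at 0.88 and 0.85 for Casp12. Casp4 was not highest in either of those hearts.

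The sequence before the start of Casp4 is shown because this gene alone among the members had CLP and sham arrays apart in both the wild-type and the knockout table, in the same direction. RefSeq gives it at chr9:5308599-5308848 (GRCm38.p6, plus strand), the 250 bases before the start, and the capitals mark matches to an NF-kB pattern.
Casp4: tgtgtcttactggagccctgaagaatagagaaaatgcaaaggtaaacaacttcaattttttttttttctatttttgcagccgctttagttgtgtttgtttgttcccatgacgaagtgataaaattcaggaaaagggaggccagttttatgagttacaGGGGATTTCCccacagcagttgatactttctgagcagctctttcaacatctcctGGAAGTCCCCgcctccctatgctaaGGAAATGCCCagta
The pattern was GGG and TTCC separated by any 3 bases, on either strand, and the window holds 3 matches, the farthest beginning 93 bases before the start. Of all 32851 promoter windows of this length, 4.65% hold at least 1 match, and of all genes with a window 5.31% do. Among the members, 30 had a window in the table, and the pattern also occurred before Bcl2l1, Mcl1 and Bbc3. A match is a description of letters and not a measured binding site.

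Of the remaining caspases none separated the groups. Casp6, an executioner caspase, differed by -1.06 ± 0.65 (adjusted p = 0.454), with Min Dep replicate 1 at -2.39, far below the other 5 septic hearts (-0.29 to 0.73). Casp2, an initiator linked to DNA damage and stress, differed by 0.77 ± 0.67. Casp8, the initiator of the receptor route, differed by -0.33 ± 0.90, and its sham hearts alone spanned -1.30 to 2.00. Casp9, the initiator of the mitochondrial route, differed by 0.19 ± 0.35.

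The proteins that leave mitochondria went in different directions. Aifm1, a flavoprotein that supports respiratory complex I and moves to the nucleus in caspase-independent death, was at 1.32, 1.03 and 1.12 in sham hearts. In Min Dep hearts it was at -0.67, -1.95 and -1.23 and in Max Dep hearts at -0.37, 0.44 and 0.30. The sham hearts were the 3 highest and the Min Dep hearts the 3 lowest. Aifm1 differed by -1.74 ± 0.32 after CLP (SE; adjusted p = 0.0702, limma).

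Cycs, cytochrome c, was at 1.40, 0.87 and 0.94 in sham, -0.43, -0.23 and -2.19 in Min Dep and -0.41, -0.19 and 0.092 in Max Dep hearts. All septic hearts were lower than all sham hearts, and Min Dep replicate 3 was far below the rest. The difference was -1.63 ± 0.47 (adjusted p = 0.150), and all 3 probe sets of Cycs were lower (-1.95, -1.23 and -1.70). Diablo, which binds XIAP and frees caspases, ran the other way: -1.63, -1.25 and -0.28 in sham, 0.52, -0.18 and 0.14 in Min Dep and 0.45, 1.18 and 1.17 in Max Dep hearts. Its septic hearts were all higher, Max Dep replicates 2 and 3 most of all, with a difference of 1.60 ± 0.36 (adjusted p = 0.0962) and both probe sets higher (1.48 and 1.72). Endog, a mitochondrial nuclease, was at -1.21, -0.93 and -0.40 in sham, -0.24, -0.91 and -0.42 in Min Dep and 1.27, 2.16 and 0.97 in Max Dep hearts. The Max Dep hearts alone all stood above sham, and the CLP difference of 1.32 ± 0.33 (adjusted p = 0.122) averages over unlike groups. Apaf1, the scaffold of the apoptosome, differed by -0.022 ± 0.62, with its 2 probe sets at -0.94 and 0.90.

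The inhibitors of apoptosis were split as well. Xiap, the direct caspase inhibitor, was at 0.36, 1.06 and 1.02 in sham, -0.77, -0.081 and -0.42 in Min Dep and -0.044, -0.68 and -0.40 in Max Dep hearts. Septic hearts were all lower, and the septic groups overlapped each other. The difference was -1.21 ± 0.25 (adjusted p = 0.0813), and each of its 6 probe sets was lower, at -0.73 to -1.88. Without sham replicate 1, which the sex-linked genes set apart, X-linked Xiap differed by -1.44 (adjusted p = 0.118) and X-linked Aifm1 by -1.66 (adjusted p = 0.166). On the autosomes, the differences without that array were 2.08 for Casp4, 2.25 for Birc2, 1.31 for Diablo, 1.14 for Endog, 1.34 for Bcl2l11 and -1.46 for Cycs. Over 15 alternative settings the adjusted p ran from 0.0548 to 0.292 for Xiap and from 0.0532 to 0.292 for Aifm1.

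Birc2, a ubiquitin ligase that holds the TNF receptor complex in survival signalling, was at -0.20, -1.02 and -2.30 in sham hearts. It was at 0.55, 0.33 and 0.44 in Min Dep and 0.66, 0.77 and 0.78 in Max Dep hearts. The septic hearts lay close together while the sham hearts were spread, and the difference was 1.76 ± 0.44 (adjusted p = 0.117). Birc3, its close relative and direct neighbour on the chromosome (0 protein-coding genes between them), differed by 0.91 ± 0.35 (adjusted p = 0.250) with overlapping groups.

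The stretches before Cycs and Birc2 are shown because the same 8 letters, TGACGTCA, the cyclic AMP response element, stand in both, in genes whose septic values lay on opposite sides of sham. The capitals mark that element. Cycs lies at chr6:50566570-50566819 and Birc2 at chr9:7837058-7837307 (RefSeq, GRCm38.p6, minus strand for both), and each is printed 5′ to 3′ in the direction of the gene.
Cycs: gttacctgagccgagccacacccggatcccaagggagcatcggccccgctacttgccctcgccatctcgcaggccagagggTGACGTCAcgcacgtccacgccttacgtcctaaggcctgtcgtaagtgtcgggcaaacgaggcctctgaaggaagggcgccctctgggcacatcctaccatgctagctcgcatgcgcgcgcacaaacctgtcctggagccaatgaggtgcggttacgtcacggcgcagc
Birc2: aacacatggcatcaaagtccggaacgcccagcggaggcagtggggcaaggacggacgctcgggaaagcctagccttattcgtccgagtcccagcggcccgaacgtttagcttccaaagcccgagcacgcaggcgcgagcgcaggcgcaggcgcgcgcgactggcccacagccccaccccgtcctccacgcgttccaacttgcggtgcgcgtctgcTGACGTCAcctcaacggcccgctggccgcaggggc
The element begins 169 bases before the start of Cycs and 35 before that of Birc2. It is held by 1.55% of all windows and 1.77% of all genes with a window. No other member with a window did. An interferon-type pattern, a pair of GAAA separated by any 2 bases, occurred before Tnfrsf1b alone (3.46% of all genes with a window). The STAT pattern TTCNNNGAA occurred before Casp12, Fas, Tnfrsf1a and Tnfrsf1b (8.13% of all such genes). The short HIF pattern ACGTG occurred before 9 of the 30 members, against 18.5% of all such genes. The NRF1 pattern, GCGCA followed at once by TGCGC (0.877% of all such genes), and the ERR pattern TCAAGGTCA (0.422%) were in none of the 30. These 7 patterns were searched on both strands, and a match to one may share letters with a match to another.

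Among the BCL2 family no gene separated septic from sham hearts. Bcl2l11, the BH3-only protein BIM, was at -0.16, -0.86 and -1.11 in sham, 0.51, 0.75 and 0.36 in Min Dep and 0.29, 0.59 and -0.35 in Max Dep hearts. Max Dep replicate 3 fell within the sham range, and the other 5 septic hearts were above it. The difference was 1.07 ± 0.29 (adjusted p = 0.137). Its 5 probe sets were at 1.66, 1.44, 1.88, 1.10 and -0.74. When every probe set was tested by itself, the one at 1.88 ± 0.31 passed (adjusted p = 0.0452, limma over 20380 probe sets), the only one of the 72 to do so in any comparison. The share of all probe sets passing in that fit is not given here, so 1 of 72 has no background beside it. Over all 15 alternative settings the adjusted p of Bcl2l11 ran from 0.0452 to 0.339. The other BH3-only genes were Bid, cut by caspase-8 to link both routes (0.94 ± 0.54), Bik (0.79 ± 0.44), Bbc3, the p53 target PUMA (0.64 ± 0.57), Pmaip1, the p53 target NOXA (-0.29 ± 0.49), and Bad, which growth factor signals restrain (-0.40 ± 0.41). Of the 6 genes, 4 were higher and 2 lower, and all had overlapping groups.

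The pro-survival genes were 2 higher and 2 lower. Bcl2l1, which encodes BCL-XL, was at 0.91, 0.79 and 0.21 in sham, 0.18, -1.68 and -1.10 in Min Dep and -0.25, 0.58 and 0.19 in Max Dep hearts, and differed by -0.98 ± 0.45 (adjusted p = 0.315). Mcl1, a short-lived guardian that heart muscle depends on, differed by 0.75 ± 0.54, Bcl2 by 0.65 ± 0.76 and Bcl2l2 by -0.15 ± 0.40. Bak1, the pore-forming effector, differed by 0.15 ± 0.63.

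**Figure D2:**
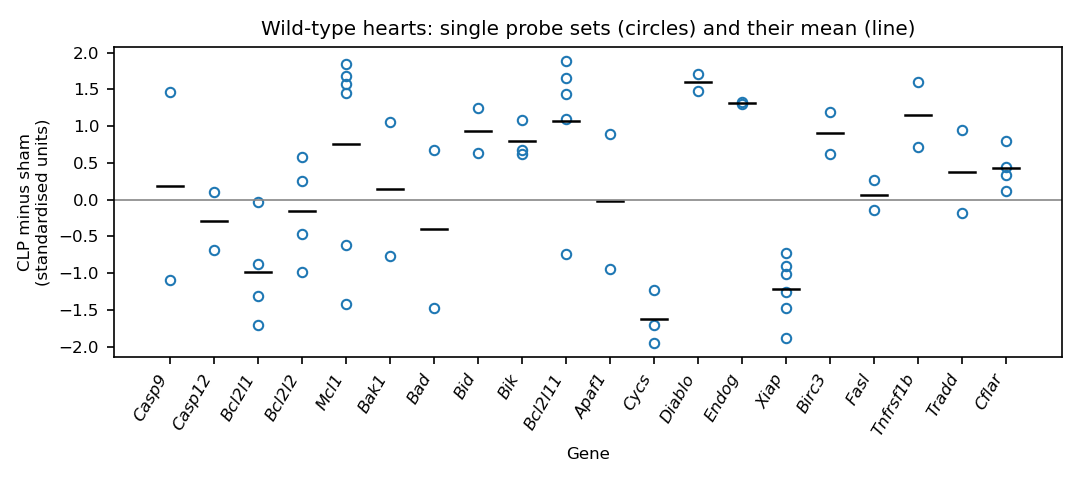
CLP minus sham difference of each probe set (circles, standardised units, vertical axis) in wild-type hearts for the 20 members with more than 1 probe set, with the mean of the probe sets as a line. In 10 of the 20 the probe sets lie on both sides of 0, as in Mcl1, while all 6 of Xiap lie below it.

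The mean over probe sets hid disagreement in some of these genes. Of the 20 members with several probe sets, 10 had values of both signs in wild-type CLP against sham. For Mcl1, 4 probe sets were higher (1.45 to 1.84) and 2 lower (-1.42 and -0.61). Casp9 had -1.09 and 1.47, Bad 0.67 and -1.47, and Bak1 1.06 and -0.77. A mean near 0, as for Casp9, thus averages opposed probe sets. Cycs, Diablo, Endog, Xiap, Birc3, Bid, Bik, Bcl2l1, Tnfrsf1b and Cflar had all their probe sets on 1 side. The other 13 members rest on 1 probe set each, so no such agreement could be seen for them. Casp4, Aifm1, Birc2, Tnfrsf1a, Fadd, Fas, Casp1, Casp2 and Pmaip1 are among these. The comparisons below share this limit. Probe sets had both signs in 13 of the 20 members for Max Dep against sham and in 8 for Min Dep against sham. They did so in 9 for Max Dep against Min Dep and in 7 for knockout CLP against sham.

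On the receptor side, both TNF receptors were higher on average and Fas lower, none of them passing. Tnfrsf1a, the TNF receptor with a death domain, was at -0.73, -1.01 and -0.91 in sham, 1.32, 1.05 and -0.21 in Min Dep and -0.072, 1.18 and -0.70 in Max Dep hearts (named after its values were seen). All septic hearts were higher, though Max Dep replicate 3 was only just above the highest sham heart, and the difference was 1.31 ± 0.52 (adjusted p = 0.257). Tnfrsf1b, the TNF receptor without a death domain, which leukocytes carry, was at 0.14, -1.35 and -1.10 in sham, 0.48, 0.79 and 0.066 in Min Dep and 0.22, 0.72 and 0.058 in Max Dep hearts. Sham replicate 1 lay within the septic range, and the difference was 1.16 ± 0.39 (adjusted p = 0.193). Fas differed by -0.70 ± 0.62 and its ligand Fasl by 0.062 ± 0.52. The adaptors Tradd (0.38 ± 0.64) and Fadd (0.14 ± 0.49) and the caspase-8 brake Cflar (0.43 ± 0.41) were higher with overlapping groups.

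The window before Tnfrsf1a, at chr6:125349473-125349722 (RefSeq, GRCm38.p6, plus strand), is shown as that of the TNF receptor whose septic hearts were all higher, with its STAT pattern in capitals.
Tnfrsf1a: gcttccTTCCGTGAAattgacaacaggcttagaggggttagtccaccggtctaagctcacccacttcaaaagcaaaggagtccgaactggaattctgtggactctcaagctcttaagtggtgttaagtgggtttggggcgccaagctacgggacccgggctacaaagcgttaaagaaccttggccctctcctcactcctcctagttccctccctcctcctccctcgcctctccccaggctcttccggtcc
That match begins 244 bases before the start, at the far end of the window.

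Markers of other cell types were read in the same hearts. Macrophage and monocyte markers were higher in 8 of 8 genes (median 1.76, 0 passing), and their array means ran from -1.41 to -0.58 in sham, -0.11 to 0.63 in Min Dep and 0.42 to 0.99 in Max Dep hearts. Neutrophil markers were higher in 5 of 6 (median 1.54, S100a8 and S100a9 passing), with array means of -1.41 to -0.25, -0.085 to 0.91 and 0.19 to 0.62. Fibroblast markers were lower in 6 of 6 (median -1.55), with array means of 0.90 to 1.18, -1.73 to 0.11 and -0.47 to 0.20, and smooth muscle and pericyte markers in 5 of 5 (median -1.76). Cardiomyocyte (median -0.29), endothelial (0.84), T and natural killer cell (-0.11), B cell (-0.24), adipocyte (-1.09) and erythroid (-0.83) markers had 0 genes passing. The part of these shifts in the differences of Casp4, Tnfrsf1b or any other member was not tested. In whole-heart RNA, fewer cells of a type and less RNA per cell cannot be told apart. Control probe sets at the 5′ end minus those at the 3′ end, a rough guide to RNA integrity, gave 0.90 ± 0.75 for sham, -0.19 ± 0.33 for Min Dep and -0.71 ± 1.19 for Max Dep hearts (n = 3 and SD for each). With this control difference as a covariate, 0 members passed in wild-type CLP against sham, and the differences were 1.84 for Casp4, -1.64 for Aifm1, -1.28 for Xiap, -1.55 for Cycs, 1.96 for Diablo and 1.31 for Birc2 (adjusted p from 0.262 to 0.449 for these 6). The members were then 22 higher and 11 lower.

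**Figure D3:**
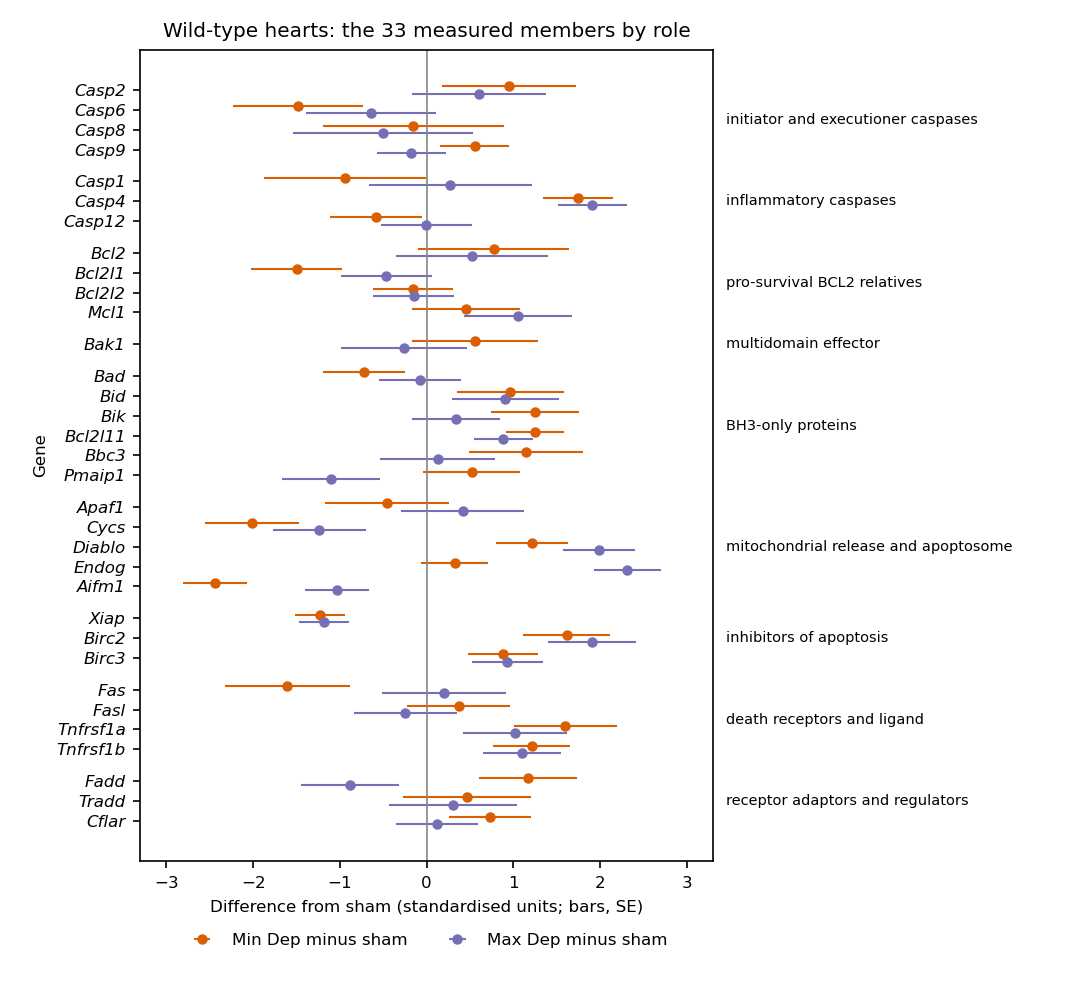
Difference from sham (horizontal axis, standardised units, bars are SE) of the 33 measured members in Min Dep and Max Dep wild-type hearts, grouped by role. Casp4, Birc2 and Xiap lie at about the same place in both groups, while Endog is at 2.31 in Max Dep and 0.32 in Min Dep hearts and Aifm1 at -1.03 and -2.44.

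Each septic group was then set against sham by itself. The comparisons use the same sham hearts, so their values are given side by side. In Max Dep hearts 0 of 33 members passed, against 0.452% of all genes (limma). At an unadjusted p under 0.05 there were 8 members (24.2%, against 16.7%), and 11 did not overlap with sham (33.3%, against 26.4%), 8 of them higher (13.8% of all genes) and 3 lower (12.7%). In Min Dep hearts 0 of 33 passed, against 0.0565% of all genes. There, 10 members had an unadjusted p under 0.05 (30.3%, against 16.4%), and 11 did not overlap (33.3%, against 23.4%), 5 higher (10.9% of all genes) and 6 lower (12.4%). With eBayes 0 members passed in either. The median difference of the members was 0.20 in Max Dep and 0.52 in Min Dep hearts, against -0.087 and 0.12 over all genes. With the per-array step undone, the Min Dep medians were 0.67 for the members and 0.27 for all genes.

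Endog had the smallest p of the members in Max Dep hearts, with a difference of 2.31 ± 0.39 (SE; adjusted p = 0.0798), against 0.32 ± 0.39 in Min Dep hearts. Aifm1 had the smallest in Min Dep hearts, with -2.44 ± 0.37 (adjusted p = 0.0724), against -1.03 ± 0.37 in Max Dep hearts. Casp4 was at 1.91 ± 0.40 and 1.74 ± 0.40 in Max Dep and Min Dep hearts, and Xiap at -1.19 ± 0.29 and -1.23 ± 0.29. Diablo was at 1.99 ± 0.42 and 1.21 ± 0.42, and Cycs at -1.24 ± 0.54 and -2.02 ± 0.54. For Casp4 and Xiap the values of both septic groups lay within an SE of each other, while those of Endog and Aifm1 were 1.99 and 1.41 apart.

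Max Dep hearts were next compared directly with Min Dep hearts, within the septic animals. No member passed (0 of 33, and 0.00% of all genes; limma, also with eBayes). At an unadjusted p under 0.05 there were 5 members (15.2%), against 9.81% of all genes. The groups did not overlap in 7 members (21.2%), against 15.3% of all genes. Endog, Aifm1, Fas, Casp1 and Birc2 were those higher in Max Dep hearts (7.89% of all genes), and Fadd and Casp9 those lower (7.43%). Endog was higher by 1.99 ± 0.39 (95% interval 1.04 to 2.94, adjusted p = 0.313), and its 2 probe sets gave 1.98 and 2.00. Aifm1 was higher in Max Dep than in Min Dep hearts by 1.41 ± 0.37 (0.51 to 2.32, adjusted p = 0.402), although both septic groups were below sham.

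Fadd, the adaptor that links FAS to caspase-8, was at 0.65, 0.56 and 1.95 in Min Dep and -0.57, -1.61 and -0.81 in Max Dep hearts, with sham at -0.61, 0.74 and -0.47. The Max Dep hearts were lower than all Min Dep hearts, and sham hearts fell between and among them. The difference was -2.05 ± 0.57 (-3.44 to -0.66, adjusted p = 0.414). Fas, its receptor, stood the other way round, at -1.23, -1.25 and -0.83 in Min Dep and -0.68, 0.93 and 1.85 in Max Dep hearts (difference 1.80 ± 0.72, adjusted p = 0.502; named after its values were seen). Pmaip1, the BH3-only protein NOXA, was at 1.45, -0.33 and 0.92 in Min Dep and -1.37, -0.22 and -1.22 in Max Dep hearts, with Min Dep replicate 2 inside the Max Dep range. It differed by -1.62 ± 0.56 (-2.99 to -0.24, adjusted p = 0.457).

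By role, the 5 mitochondrial release and apoptosome genes were all higher in Max Dep than in Min Dep hearts (median 0.87, from 0.77 for Diablo to 1.99 for Endog). Of the 6 BH3-only genes, 5 were lower (median -0.64), and the 3 adaptor genes were all lower (median -0.61). The inflammatory caspases (median 0.58) and the inhibitors of apoptosis (median 0.053) were higher in 3 of 3 each. The other roles were mixed or held 1 gene. Of the 4 initiator and executioner caspases 3 were lower, as were 3 of the 4 genes of the death receptors and ligand. Of the 4 pro-survival genes 3 were higher, and Bak1 was lower. The median over all 33 members was 0.0081, against -0.084 over all genes. Of the members 17 were higher and 16 lower, and of all genes 46.7% were higher. None of these genes passed. The counts of the mitochondrial, BH3-only and adaptor genes were the same under quantile normalization and with the per-array step undone. They were also the same with medians of probe sets and with the 5′ to 3′ covariate. Of the inflammatory caspases 2 of 3, and of the inhibitors of apoptosis 1 of 3, were higher with the step undone. With the step undone the median over all genes shifted from -0.084 to -0.28, the members were 13 higher and 20 lower, and the mitochondrial genes were at 0.44 or more. In the same hearts 5 of 6 cardiomyocyte markers were higher in Max Dep (median 0.64, 0 passing), with array means of -1.32 to 0.14 in Min Dep and 0.0098 to 0.55 in Max Dep hearts, while T and natural killer cell markers were lower in 7 of 7 (median -0.80) and B cell markers in 3 of 3 (median -1.54). Array means of T and natural killer cell markers were -0.34 to 0.96 in Min Dep and -0.96 to -0.041 in Max Dep hearts, and those of B cell markers -0.15 to 1.45 and -1.27 to -0.13. Fibroblast markers were higher in 6 of 6 (median 0.50), macrophage and monocyte markers in 7 of 8 (0.61), neutrophil and endothelial markers in 4 of 6 each (0.48 and 0.44) and smooth muscle and pericyte markers in 3 of 5 (0.23). No marker passed, and their part in the values of the mitochondrial, BH3-only and adaptor genes was not tested.

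**Figure D4:**
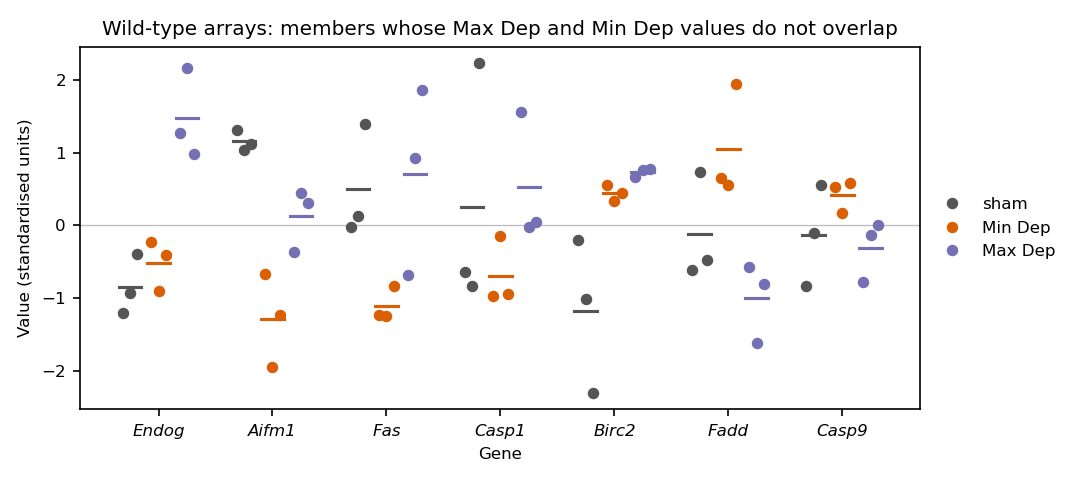
Value of each wild-type array (vertical axis, standardised units) for the 7 members whose Max Dep and Min Dep hearts do not overlap, with sham shown beside them and lines at group means. Endog, Aifm1, Fas, Casp1 and Birc2 are higher in the 3 Max Dep hearts, and Fadd and Casp9 lower.

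In hearts that lack Nos2, CLP was compared with sham using CLP replicates 2 and 3 and the 3 sham arrays. No member passed (0 of 33, and 0.00% of all genes; limma with eBayes, and 0 also with unmoderated statistics). At an unadjusted p under 0.05 there were 5 members (15.2%), against 11.9% of all genes. The groups did not overlap in 11 members (33.3%), against 28.9% of all genes, so the share was near the background. Of the 11, 6 were higher (15.0% of all genes) and 5 lower (14.0%). With CLP replicate 1 counted, 9 of the 11 stayed apart, and Bid and Casp6 overlapped. Where replicate 1 lies between the other 2 CLP arrays it cannot overlap sham, so this count is no independent support. The share of all genes was not counted with replicate 1. On balance 19 members were higher and 14 lower, with a median of 0.18 log units against 0.029 over all genes. With CLP replicate 1 kept, 0 members passed while 295 genes of the whole table did.

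**Figure D5:**
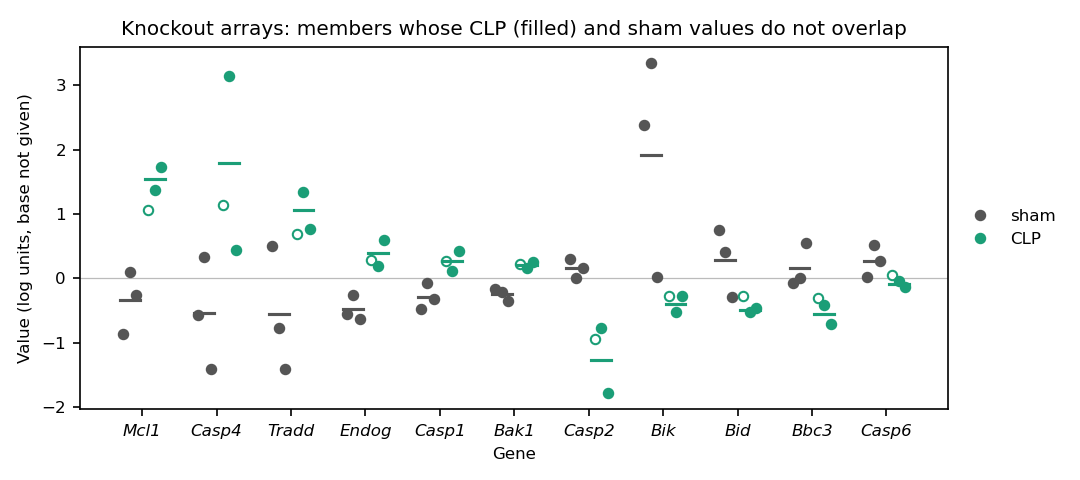
Value of each Nos2 knockout array (vertical axis, log units of a base not given) for the 11 members whose sham and CLP hearts do not overlap among the 5 arrays tested, with CLP replicate 1, left out of the test, as an open circle and lines at the means of the arrays tested. Mcl1, Casp4, Tradd, Endog, Casp1 and Bak1 are higher after CLP, and Casp2, Bik, Bid, Bbc3 and Casp6 lower, though the open circles of Bid and Casp6 lie within the sham range.

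Mcl1, the pro-survival protein, had the smallest p. Its sham hearts were at -0.86, 0.10 and -0.26, and its CLP replicates 2 and 3 at 1.37 and 1.73, with replicate 1 at 1.07. Every CLP heart was above every sham heart. The difference was 1.89 ± 0.47 log units (SE; adjusted p = 0.191, limma), or 1.73 with replicate 1 kept (adjusted p = 0.0647). Replicate 1 lay between the other 2 CLP columns in 76.0% of probe sets, though not in the mean of Mcl1. The smaller adjusted p is thus no independent support. All 6 probe sets of Mcl1 were higher here, by 0.70 to 2.62, unlike in the wild-type table.

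Casp4 was at -0.57, 0.33 and -1.40 in sham and 3.15 and 0.45 in CLP replicates 2 and 3, with replicate 1 at 1.14. Replicate 2 was far above the others, and replicate 3 only just above sham replicate 2. The difference was 2.35 ± 0.91 (adjusted p = 0.384), and it rested on which heart was kept, being 0.99 without CLP replicate 2 and 3.70 without CLP replicate 3. In CLP replicate 2 Tnfrsf1a (2.96) and Cflar (1.73) were also the highest of the 6 arrays. Casp2 was at 0.30, 0 and 0.16 in sham and -0.78 and -1.78 in those CLP hearts (replicate 1 at -0.94), a difference of -1.43 ± 0.47 (adjusted p = 0.302), and CLP hearts were all lower. Tradd, the adaptor of TNF receptor 1, was at 0.50, -0.77 and -1.40 in sham and 1.35 and 0.77 in those CLP hearts (replicate 1 at 0.70), all higher than sham, and differed by 1.62 ± 0.65 (adjusted p = 0.400). Without sham replicate 2, the array that the sex-linked genes set apart, the differences were 2.11 for Mcl1, 2.79 for Casp4, -1.51 for Casp2 and 1.51 for Tradd.

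Of the BH3-only genes, 5 of 6 were lower in the knockout hearts, with a median of -0.55 and none passing. Bik was at 2.39, 3.34 and 0.015 in sham and -0.52 and -0.28 after CLP (replicate 1 at -0.27), so 2 sham hearts were high and the third near the CLP values (difference -2.32 ± 0.96, adjusted p = 0.417; named after its values were seen). Bid, whose replicate 1 at -0.28 lay just above sham replicate 3 at -0.29, differed by -0.78 ± 0.48 and Bbc3 by -0.72 ± 0.43. All 3 inflammatory caspases were higher, with Casp1 at 0.56 ± 0.41 and Casp12 at 0.87 ± 0.54 log units, and so were all 4 genes of the death receptors and ligand, from 0.18 for Tnfrsf1b to 1.02 for Tnfrsf1a. Endog was higher by 0.88 ± 0.42. Of the 7 members that stood apart in wild-type CLP hearts, Casp4 alone also stood apart here, where 28.9% of all genes did. Birc2 (0.53 ± 0.47) was higher and Xiap (-0.83 ± 0.85) and Cycs (-0.98 ± 0.78) lower with overlap, while Aifm1 was at 0.48 ± 1.05, Diablo at -0.071 ± 0.47 and Tnfrsf1a at 1.02 ± 1.02. In sign, 20 of 33 members agreed between the tables, and the share over all genes was not counted. The tables differ in unit, array model and genotype at once, and no difference between genotypes was tested.

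The same marker lists were read in the knockout hearts. Macrophage and monocyte markers were higher in 7 of 8 genes (array means from -0.65 to 0.052 in sham and 1.41 to 2.42 after CLP) and neutrophil markers in 6 of 6 (-0.59 to -0.11 and 1.53 to 3.35). Endothelial markers were lower in 6 of 6 (0.86 to 1.90 and -2.47 to -0.97) and smooth muscle and pericyte markers in 5 of 5. These array means include CLP replicate 1, while the gene counts do not. Cardiomyocyte and fibroblast markers were lower in 4 of 6 each (medians -1.49 and -1.52), and B cell markers in 3 of 3 (-0.90). T and natural killer cell markers were lower in 4 of 7 (-0.12), erythroid in 2 of 2 (-1.14) and adipocyte in 1 of 2 (-2.51). In every list 0 genes passed, and the part of these markers in the values of the members was not tested. The 5′ minus 3′ control difference was -0.26 ± 1.53 in sham and -1.30 ± 0.67 in CLP hearts (SD, n = 3 each).

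A further 73 genes of the same pathways were listed, of which 58 were measured, and none of them passed in any of the 5 comparisons (0 of 58 in each). In wild-type CLP against sham 27 were higher and 31 lower (median -0.057), and 11 had an unadjusted p under 0.05 (limma), which is 19.0% of them against 18.6% of all genes, a share at the background. The 3 with the smallest p on the higher side were Acin1, which condenses chromatin once caspases cut it (1.73 ± 0.33, adjusted p = 0.0725), Pycard, the adaptor of the inflammasome (1.38 ± 0.33, adjusted p = 0.109), and Casp8ap2, a partner of caspase-8 (1.55 ± 0.39). On the lower side those were Tnfrsf12a, the receptor of TWEAK (-1.88 ± 0.37, adjusted p = 0.0725), Bag4, which holds TNF receptor 1 silent (-1.48 ± 0.36), and Gadd45b (-1.65 ± 0.44).

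Acin1 was at -1.08, -0.93 and -1.45 in sham, 0.78, -0.20 and 1.17 in Min Dep and 0.64, 0.83 and 0.28 in Max Dep hearts. Casp8ap2 was at -1.65, -0.28 and -1.12 in sham, 0.11, -0.47 and -0.36 in Min Dep and 0.62, 1.55 and 1.75 in Max Dep hearts. The septic hearts of Acin1 were all above sham, while for Casp8ap2 this held for the Max Dep hearts alone. On the lower side Tnfrsf12a was at 1.89, 0.75 and 1.03 in sham, 0.066, -0.46 and -1.26 in Min Dep and -0.80, -0.84 and -0.67 in Max Dep hearts. Bag4 was at 0.33, 1.42 and 1.21 in sham, -0.20, 0.14 and -0.10 in Min Dep and -1.45, -0.22 and -1.14 in Max Dep hearts. Gadd45b, a growth arrest gene induced by stress, was at 0.44, 1.92 and 0.91 in sham, -0.26, -0.10 and -0.83 in Min Dep and -1.50, -0.37 and -0.32 in Max Dep hearts. In all 3 genes every septic heart was below every sham heart. Of the 58 further genes measured, 3 were apart on the lower side, where 6.11% of all genes were. On the higher side 3 were apart, against 5.89% of all genes.

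Pycard was at -0.79, -1.20 and -0.82 in sham, 1.18, -0.13 and 0.76 in Min Dep and 0.083, 0.027 and 0.74 in Max Dep hearts, so that its septic hearts, like those of Casp4, were all above sham. In the knockout table it was higher by 1.96 ± 0.53 log units (adjusted p = 0.212). Il1b, the substrate of caspase-1, differed between CLP and sham by 0.25 ± 0.85 standardised units in wild-type hearts. In knockout hearts it differed by 2.28 ± 0.65 log units, and the 2 values cannot be set against each other. Tnf (-0.24 ± 0.78) and Tnfsf10 (0.15 ± 0.72), ligands of the receptor route, overlapped between wild-type septic and sham hearts. So did Ripk3 (-0.0033 ± 0.81), the kinase of necroptosis, and the p53 targets Cdkn1a (0.16 ± 0.59) and Zmat3 (-0.061 ± 0.81).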

How the data were processed

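The deposited tables held 1 value per probe set and array, 9 wild-type and 6 knockout arrays. The unit was treated as a score: the authors' scaling is not stated in the labels, and scanner files, software and build are not given in the sources used here. In the wild-type table each column had an SD of 1, and once that per-array step was undone each probe set had mean 0 and SD 1. Levels and depth are therefore unknown, and array number limits the precision. Probe sets were named through the platform annotation: 20380 of 22690 named 1 gene, 691 several and 1555 none, beside 64 control probe sets. Probe sets of a gene were averaged. Wild-type groups were fitted together in limma 3.58.1 (R 4.3.3) with unmoderated statistics on 6 residual degrees of freedom, since row-standardised values give no common variance. The knockout table was fitted alone with eBayes. P-values were adjusted by Benjamini-Hochberg over 12393 genes, and the test was tried on simulated data. Members, lists and tests were chosen with earlier results of these data known. Values per array are given for the 8 members with the largest statistic in wild-type CLP against sham, the 4 largest in each other comparison and, with the smallest p, the 3 further pathway genes in each direction. Tnfrsf1a, Tnfrsf1b, Bcl2l1, Fas, Bik, Il1b, Tnf, Tnfsf10, Ripk3, Cdkn1a and Zmat3 were named after their values were seen. Alternatives were eBayes, single probe sets, the step undone, quantile normalization, column centring, the control covariate, medians of probe sets, fewer arrays and leaving out each array.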

Additional observations from a re-analysis of the deposited data

Results flagged for a closer look

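Of the 33 members, 4 had 1 of the 6 wild-type CLP arrays far from the other 5 (Dixon's criterion). For a single normally distributed group chance gives about 1 in 20. The 6 arrays pool Min Dep and Max Dep hearts, and the share over all genes was not counted, so no excess is read from this count. Cycs was at -2.19 in Min Dep replicate 3, against -0.43 to 0.092 in the others. Casp6 was at -2.39 and Bad at -1.31 in Min Dep replicate 1, against -0.29 to 0.73 and -0.11 to 0.55. Fasl was at 1.56 in Min Dep replicate 2, against -0.79 to -0.023. Bid, the BH3-only link between the death receptor and mitochondrial routes, was higher than sham by 0.91 standardised units in Max Dep hearts, with all 3 arrays above sham. In knockout CLP hearts it was at -0.78 log units, with both arrays tested below sham, while replicate 1, left out of the test, was at -0.28, inside the sham range (lowest -0.29). This difference between genotypes was not tested, since the tables differ in unit.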

How the results depend on the processing

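Over 74 alternative settings for the 5 comparisons, 73 called 0 members. The exception was wild-type CLP against sham with every probe set tested by itself, which called 1 member, Bcl2l11 (1.88, adjusted p = 0.0452). With each array left out in turn the count ran from 0 to 0, where a lone knockout CLP array was assumed to vary like the sham arrays. The 24 differences of single members that were followed kept their direction under all 356 alternative fits, and 355 kept their side of the threshold. They were chosen for large statistics in these same arrays, so a kept direction is no independent support. None of the 24 passed as reported, so keeping the side meant still not passing. The number of all genes passing depended far more on the setting, from 0 to 481 for wild-type CLP against sham (89 as reported), 0 to 210 for Max Dep (56), 0 to 105 for Min Dep (7), 0 to 2 for Max Dep against Min Dep (0) and 0 to 295 for the knockout (0). The cause was not tested. No paired analysis was possible because the labels give the arrays no shared replicate numbers.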
